A study of Homo sapiens with 2 samples.

Results

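NUPR1, ATF4 and 8 further genes of the integrated stress response were examined in RNA-seq libraries of A549 cells, a human lung adenocarcinoma line, with and without knockdown of MILIP (MAFG-AS1), a long noncoding RNA induced by c-Myc. The 10 genes, NUPR1, ATF4, ATF3, DDIT3, TRIB3, CHAC1, DDIT4, STC2, CEBPB and JDP2, were matched by Ensembl identifier among the 27856 genes with a deposited value, and all 10 were among the 13521 genes with a mean value of at least 1 in the 2 libraries. NUPR1 was selected on its high ratio in these same libraries, and the others were chosen from the ATF4 pathway with ratios of these data already known, so the ratios of the 10 genes are a description and carry no test.

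One group received a control siRNA and the other a siRNA against MILIP, both delivered by Lipofectamine 3000, and total RNA was taken 48 h later, with 1 library per condition. The study names the MILIP siRNA of this experiment as si-MILIP.2, and with a single siRNA, effects of MILIP loss cannot be told apart from other effects of that siRNA. With 1 library per condition there was no spread between replicates to set a difference against. The intervals below are 95% limits for counting error alone, from the number of reads behind each value, and PCR copies and variation between cultures are not covered by them. In bulk RNA, a lower level per cell and fewer expressing cells also cannot be told apart.

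The integrated stress response joins several kinases that phosphorylate the initiation factor eIF2, among them PERK at the endoplasmic reticulum and GCN2 for amino acid shortage. Phosphorylated eIF2 lowers general protein synthesis but lets ribosomes reach the coding sequence of ATF4, which lies behind upstream open reading frames, so ATF4 is controlled largely at translation and its mRNA level says little about its protein. ATF4 is a basic leucine zipper (bZIP) transcription factor that works in dimers, often with C/EBP proteins, and induces further factors such as ATF3 and DDIT3 (CHOP) as well as effectors of amino acid supply, growth control and cell death.

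The deposited values are read counts multiplied by a fixed factor for each library. They add up to 20300800 reads in the control library and 19460956 in the knockdown library, and a gene with fewer than 20 reads is listed at 0. MILIP itself had values of 29.5 and 3.22 in these libraries, a ratio of 0.109. In what follows, where 2 values are given for a gene, the control library comes first. All 12 epithelial and A549 markers were counted, with a summed value of 15937 and 21638, but they were not level between the libraries. Past 1.5-fold, 4 were higher, KRT19 (62.1 and 121.9), EPCAM (2.65 and 5.93), ALDH1A1 (5237 and 9750) and CDH1 (30.5 and 50.8), and 2 were lower, KRT7 (1508 and 810.0) and CLDN1 (130.5 and 53.2), whereas KRT18 stood at 641 and 655. The part of these marker differences in the results below was not tested. Of 16 markers of immune, endothelial, stromal, blood and alveolar type II cells, ACTA2 was above 0, at 2.75 and 4.22, and the other 15, the surfactant genes SFTPC and SFTPA1 included, were at 0 or without a value.

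With MILIP siRNA, 9 of the 10 genes were higher than with control siRNA, and STC2 was lower. Over all 13521 genes, 6469 were higher and 7052 were lower. NUPR1 stood apart with a 4.87-fold difference, TRIB3, JDP2 and DDIT3 lay between 1.96-fold and 2.26-fold, and ATF3, CHAC1, DDIT4 and CEBPB lay between 1.49-fold and 1.67-fold. ATF4 mRNA was nearly level at 1.09-fold. With a pseudocount of 1 on the log2 scale, which shrinks the log2 ratios of genes with low values, 6 of the 10 were past 1.5-fold on the higher side (NUPR1, TRIB3, JDP2, DDIT3, ATF3 and DDIT4), against 11.1% of all 13521 genes. STC2 was at least 1.5-fold lower, against 13.8% of all genes, and 3 genes (NUPR1, TRIB3 and JDP2) were at least 2-fold higher, against 3.48% of all genes. The median log2 ratio was 0.66 over the 10 genes and −0.03 over all genes. Nothing is read from these shares, since the same ratios were in view when the genes were chosen.

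**Figure D1:**
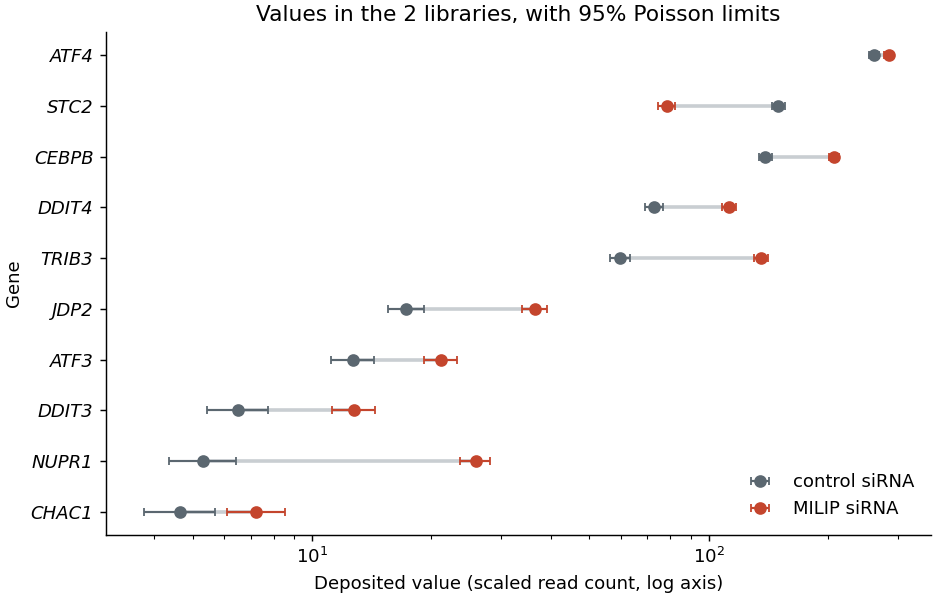
Deposited values (scaled read counts, log axis) of the 10 genes with control siRNA (grey) and MILIP siRNA (red), 1 library each, where bars are 95% Poisson limits for counting error. The gap is widest for NUPR1, from 5.31 to 25.8, and STC2 has its red point below the grey one.

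NUPR1 encodes a small stress-induced chromatin protein that takes part in transcriptional responses to nutrient and endoplasmic reticulum stress. The gene (ENSG00000176046) lies at chr16:28532708-28539174 on the minus strand in GRCh38, with 3 exons in the principal transcript, and no exon of another annotated gene overlaps its exons. NUPR1 had a value of 5.31 (limits 4.35 to 6.42) in the control library and 25.8 (limits 23.7 to 28.2) after knockdown, from 106 and 514 reads. The ratio was 4.87 (limits 3.94 to 6.06), a log2 ratio of 2.28 without a pseudocount and 2.09 with a pseudocount of 1. NUPR1 was at place 23 of the 13521 genes ranked by log2 ratio from the top, and at place 10 among the 13393 genes above 0 in both libraries when no pseudocount was added. Its limits did not overlap those of TRIB3, the next of the 10 genes.

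The genes whose pair of values was most like that of NUPR1, by Euclidean distance of log2(value + 1) over the 2 libraries, were SOX2, LMTK3, C11orf86, FBXW10 and OSBPL5. SOX2, a pluripotency and airway lineage transcription factor, was the nearest, at 5.41 and 21.2, with a distance of 0.27, and OSBPL5 was the farthest of the 5, with 0.49. FBXW10 was listed at 4.26 and 19.3 and OSBPL5 at 5.96 and 18.4. Over 2 libraries this likeness means only a similar level in each.

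ATF4, the factor at the centre of the response, was listed at 261 in the control library and 284 after knockdown, from 5217 and 5653 reads. The ratio was 1.09 (limits 1.05 to 1.13), at place 5067 from the top. ATF4 (ENSG00000128272) lies at chr22:39519695-39522685 on the plus strand. Its principal transcript has 2 exons and 7 ATG triplets ahead of the coding start, in a leader of 882 bases. At least 7 such triplets were found in 5.66% of the 12218 coding genes counted, and among the 10 genes only STC2, with 11, had more than ATF4. TRIB3 had 3, NUPR1 and DDIT3 had 2 each, ATF3 had 1, and CHAC1, DDIT4, CEBPB and JDP2 had none in their principal transcripts. The leader of the CHAC1 transcript has only 20 bases, and these counts are not adjusted for leader length. At least 1 such triplet was present in 6 of the 10 genes and in 53.3% of all coding genes counted.

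The other bZIP factors among the 10 genes, DDIT3, ATF3, JDP2 and CEBPB, were all higher in the knockdown library. DDIT3 (ENSG00000175197, chr12:57516588-57521737, minus strand) encodes CHOP, a dimerization partner of C/EBP proteins that is linked to cell death under prolonged stress. It was listed at 6.51 and 12.8, from 130 and 254 reads, a ratio of 1.96 (limits 1.58 to 2.44). Exons of MARS1 and MBD6, on the opposite strand, cover 27.2% and 4.4% of the exonic bases of DDIT3. Exons of AC022506.1, on the same strand and without a deposited value, cover 8.0%. Whether the counting used strand is not given in the sources used here. MARS1 itself was lower with MILIP siRNA, at 198 and 167, as was MBD6, at 34.9 and 27.1.

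ATF3 (ENSG00000162772, chr1:212565334-212620777, plus strand), a stress-induced bZIP factor that often represses transcription, was listed at 12.7 and 21.1, from 253 and 420 reads. Its ratio was 1.67 (limits 1.42 to 1.96). JDP2 (ENSG00000140044, chr14:75427716-75474111, plus strand), a relative of ATF3 that represses AP-1 and ATF sites, was listed at 17.3 and 36.4, from 345 and 724 reads, and its ratio was 2.11 (limits 1.85 to 2.40). Both were thus higher with MILIP siRNA, and the limits of ATF3 and JDP2 overlapped those of DDIT3 but only narrowly each other's. Exons of AF111167.2, on the opposite strand and listed at 0 and 1.46, cover 0.4% of the exonic bases of JDP2.

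CEBPB (ENSG00000172216, chr20:50190734-50192689, plus strand) encodes C/EBP beta, a bZIP factor of inflammation and differentiation that pairs with ATF4 and CHOP. It was listed at 139 and 207, from 2773 and 4113 reads, a ratio of 1.49 (limits 1.42 to 1.56), and it lay just under the 1.5-fold line. Exons of CEBPB-AS1, on the opposite strand, cover 11.8% of its single exon, and CEBPB-AS1 was listed at 0 in both libraries. With the trend across GC content removed, described below, the log2 ratio of CEBPB was 0.33 in place of 0.57.

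Of the effectors, TRIB3 showed the largest difference. It encodes a pseudokinase that binds ATF4 and AKT and restrains both. TRIB3 (ENSG00000101255), at chr20:362835-397559 on the plus strand, was listed at 59.9 in the control library and 135.5 after knockdown, from 1196 and 2695 reads. The ratio was 2.26 (limits 2.11 to 2.42), at place 305 from the top.

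CHAC1 (ENSG00000128965, chr15:40952962-40956519, plus strand), which breaks down glutathione, was the least abundant of the 10 by value, at 4.66 and 7.24, from 93 and 144 reads. Its ratio of 1.55 had the widest limits relative to its size, 1.19 to 2.04, and with the pseudocount its log2 ratio of 0.54 stayed under the 1.5-fold line. DDIT4 (ENSG00000168209, chr10:72273920-72276036, plus strand) encodes REDD1, a stress-induced brake on mTORC1 that p53 and hypoxia also induce. DDIT4 was listed at 72.7 and 112.4, from 1452 and 2235 reads, and the ratio was 1.55 (limits 1.45 to 1.65). Exons of DDIT4-AS1, on the opposite strand and without a deposited value, cover 41.2% of the exonic bases of DDIT4.

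STC2, which encodes a secreted glycoprotein induced through PERK and ATF4 under endoplasmic reticulum stress, went the other way. Its value was 149.9 in the control library and 78.4 after knockdown, from 2993 and 1559 reads, a ratio of 0.523 (limits 0.492 to 0.556). STC2 (ENSG00000113739), at chr5:173314713-173329503 on the minus strand, was at place 754 from the bottom. No exon of another gene overlaps its exons. Its paralog STC1 was listed at 23.4 and 42.5, a log2 ratio without a pseudocount of 0.86 with limits of 0.70 to 1.03, and so was on the opposite side.

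**Figure D2:**
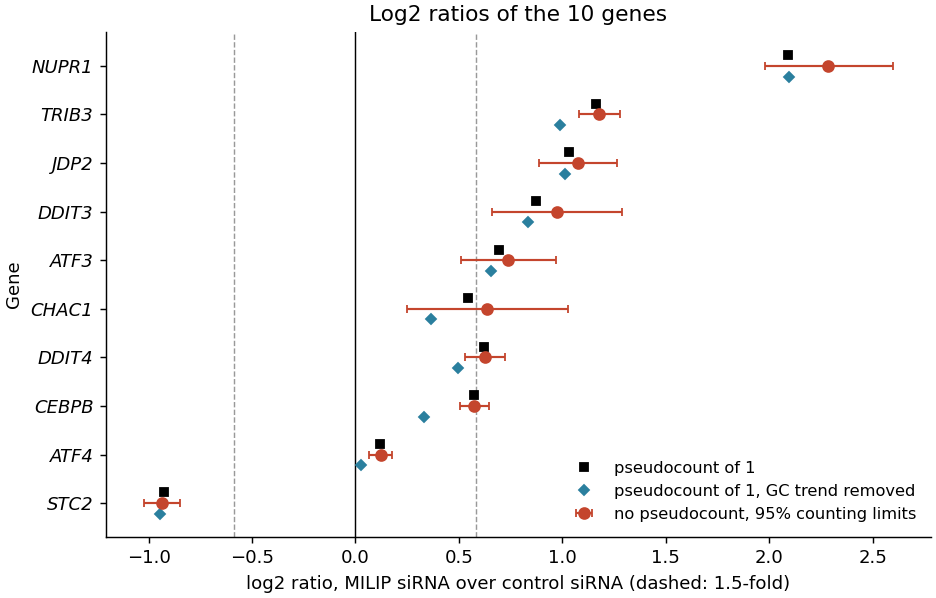
Log2 ratios (knockdown over control library) of the 10 genes, without a pseudocount and with 95% counting limits (red), with a pseudocount of 1 (black squares) and with the GC trend removed as well (blue diamonds), where dashed lines mark 1.5-fold. NUPR1 lies to the right of the others at 2.28, ATF4 lies near 0, and STC2 is the gene to the left of 0.

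By counting limits, the order of the ratios had 3 breaks, between NUPR1 and TRIB3, between CEBPB and ATF4, and between ATF4 and STC2. From TRIB3 down to CEBPB, the limits of each gene overlapped those of its neighbour. The limits excluded equal values for all 10 genes, but they did so for 67.2% of the 13393 genes above 0 in both libraries. At this depth, counting error is smaller than most differences between the 2 libraries.

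Levels of different genes were compared per kilobase of the principal transcript. With control siRNA, ATF4 was the highest at 129 per kb, followed by CEBPB at 71.0, DDIT4 at 41.6, STC2 at 28.0 and TRIB3 at 24.0. DDIT3 at 6.93 and ATF3 at 6.23 per kb did not differ beyond counting error, nor did JDP2 at 3.20 and CHAC1 at 2.99, and NUPR1 was the lowest at 0.967 per kb. With MILIP siRNA, ATF4 at 141 and CEBPB at 106 per kb were again the highest. TRIB3 at 54.2 per kb then stood above STC2 at 14.6, so that these genes changed places, and STC2 no longer differed from DDIT3 at 13.6 beyond counting error. NUPR1 at 4.71 per kb moved from the last place to beside CHAC1 at 4.64, from which it did not differ beyond counting error.

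The place of NUPR1 in this order depends on its transcript. The principal transcript has 5491 bases, whereas the other coding transcript has 550 bases. With the shorter length, NUPR1 would stand at 9.65 per kb with control siRNA and 47.0 per kb with MILIP siRNA. The lengths of JDP2 also range widely, from 972 to 5401 bases, and the level of JDP2 with control siRNA from 3.20 to 17.8 per kb accordingly. For ATF3, lengths of 482 to 2033 bases give 26.3 to 6.23 per kb with control siRNA. With its shortest coding transcript, of 1533 bases, TRIB3 would stand at 39.1 per kb with control siRNA. That is already above STC2 at 28.0, so their change of places also depends on the transcript. Ratios between the libraries are not affected by the length used.

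Over the whole table, genes with GC-rich transcripts had higher log2 ratios. The median was −0.21 in the lowest of 5 groups of equal size by GC content and 0.18 in the highest. None of the 10 genes fell in the lower 2 groups, 5 fell in group 3, 2 in group 4 and 3 in group 5. With this trend removed, NUPR1 was at 2.10, JDP2 at 1.01, TRIB3 at 0.99, DDIT3 at 0.84 and ATF3 at 0.66, DDIT4 at 0.49, CHAC1 at 0.36, CEBPB at 0.33 and ATF4 at 0.03. STC2 was at −0.95. In this setting 9 genes were still above 0, and 5 of the 10 were at least 1.5-fold higher. Over the 13398 genes with a GC content, 1349 were at least 1.5-fold higher in this setting.

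RefSeq promoter sequences (GRCh38.p14, from 250 bases before to 50 bases after each annotated start) were available for 9 of the 10 genes, at 17 starts, and NUPR1 was not among them. They were searched on both strands for the core of the C/EBP-ATF response element, TGATGNAA, where N is any base, which is the kind of site bound by ATF4 with a C/EBP partner. The core was found in ATF3, CHAC1 and JDP2, 3 of the 9 genes, and in 4.46% of the 27305 genes in the table. By single promoter, it was in 3.62% of the 35116 in the table. A gene was counted if any of its starts held a match, and the shares of genes are not adjusted for the number of starts. All of the 9 genes but STC2 were higher with MILIP siRNA, so the direction of the 3 genes says nothing about the core. CHAC1 has 1 annotated start, ATF3 has 2 and JDP2 has 3. Each window of 30 bases is given 5′ to 3′ on the strand of the gene, with the match in capitals. Its position is counted from an annotated start whose promoter holds the match.
ATF3 (chr1:212565205-212565234, plus strand, match from position −191): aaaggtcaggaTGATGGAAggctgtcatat
CHAC1 (chr15:40953251-40953280, plus strand, match from position −209, core on the other strand): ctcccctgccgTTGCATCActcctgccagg
JDP2 (chr14:75427995-75428024, plus strand, match from position −16): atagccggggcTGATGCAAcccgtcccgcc

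The other motifs searched were TGACGTCA, TGACGCAA and TGACGTAA, which are CRE and CRE-like sites of ATF and CREB dimers, and GCCACGT and CCAATCA, which are letters found in endoplasmic reticulum stress elements. TGATGNAA and these motifs do not overlap in the windows shown. CCAATCA was found in CHAC1, at 3 positions, and in DDIT3, 2 of the 9 genes, and in 8.35% of all genes in the table. By single promoter, it was in 6.95% of those in the table. The windows nearest to the start are shown for these genes, with the match in capitals, and DDIT3 has 2 annotated starts.
CHAC1 (chr15:40953380-40953409, plus strand, match from position −80): tttgccccaccCCAATCAccgcggcagctg
DDIT3 (chr12:57520574-57520603, minus strand, match from position −78, motif on the other strand): gtgccactttcTGATTGGtaggttttgggg

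TGACGTCA, TGACGCAA, TGACGTAA and GCCACGT were in none of the 9 promoters. Across the table they were in 2.25%, 0.648%, 0.513% and 3.95% of genes. ATF4, TRIB3, DDIT4 and CEBPB, which were higher with MILIP siRNA, and STC2, which was lower, held none of the motifs in these promoters. Binding was not measured, and a match or its absence here is a matter of letters only.

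The rest of the pathway was described with lists of genes by role, each counted from the same ratios with a pseudocount of 1, beside 11.1% higher and 13.8% lower over all genes. Among 24 genes listed for eIF2 phosphorylation, none was past 1.5-fold on the higher side and 5 were past it on the lower side, with a median log2 ratio of −0.16. EIF2A, at 108 and 116, is in this list but is not a subunit of eIF2, so the counts and the median are not of that role alone. EIF2AK3, the kinase PERK, was listed at 30.6 and 11.4, a log2 ratio of −1.35. DNAJC3, an inhibitor of eIF2 kinases and endoplasmic reticulum cochaperone, was listed at 60.9 and 24.3, and EIF2AK4, the kinase GCN2, at 61.8 and 26.7. EIF2S1, the eIF2 subunit that is phosphorylated, was listed at 223 and 103, a log2 ratio of −1.10, and EIF2B4, a subunit of the exchange factor eIF2B, at 56.2 and 34.7.

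Of the other eIF2 kinases, EIF2AK1 was nearly level at 200.1 and 199, and EIF2AK2 was lower at 167 and 117, short of 1.5-fold. PPP1CB, a catalytic subunit of protein phosphatase 1, had the highest log2 ratio of this list, 0.57, and PPP1R15A, the stress-induced subunit that directs the phosphatase to eIF2, the next, 0.53, at 79.3 and 115.0. NCK1, an adaptor that binds eIF2, followed at 0.23. The mRNAs of the kinases PERK and GCN2 and of their substrate were lower in the same library in which NUPR1, TRIB3 and DDIT3 were higher and STC2 was lower. Kinase activity and eIF2 phosphorylation were not measured, and a link between these values was not tested.

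Established ATF4 target genes outside the 10 did not share one direction. Of 13 genes for cytosolic tRNA synthetases and the tRNA exporter XPOT, none was past 1.5-fold on the higher side and 6 were past it on the lower side, with a median of −0.24. WARS1 was listed at 113.6 and 42.1, IARS1 at 294 and 167 and XPOT at 309 and 178, and LARS1, YARS1 and TARS1 were the others past the threshold. SARS1 had the highest log2 ratio, 0.22, followed by AARS1 with 0.15 and CARS1 with 0.09.

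Of 23 genes of amino acid supply, 3 were at least 1.5-fold higher and 1 was at least 1.5-fold lower, with a median of 0.19. The higher ones were the neutral amino acid carriers SLC1A5, at 187 and 313, and SLC1A4, at 29.1 and 49.1, and the transaminase GPT2, at 21.4 and 36.3. The glutamine carrier SLC38A1 was listed at 386 and 65.0, a log2 ratio of −2.55. The enzymes of serine synthesis lay on both sides, with log2 ratios of 0.35 for PHGDH, 0.19 for PSPH and −0.48 for PSAT1. SHMT2, which converts serine to glycine in mitochondria, had a log2 ratio of −0.35, and ASNS, asparagine synthetase, one of −0.33.

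Of 32 other genes placed downstream of ATF4 or CHOP, 5 were at least 1.5-fold higher and 4 at least 1.5-fold lower, with a median of −0.01. BBC3, which encodes the death effector PUMA and which the study counts among p53 targets, was listed at 17.1 and 51.7. CEBPD, a C/EBP family factor, was listed at 16.4 and 43.1. KLHL24, TXNIP and PCK2 were the other higher ones, KLHL24 at 11.5 and 20.1. MAP1LC3B, an autophagy gene, was listed at 77.5 and 32.9, HMOX1, heme oxygenase, at 206 and 90.2, ATG7 at 38.3 and 23.3, and PMAIP1, which encodes NOXA, at 34.1 and 22.2. CDKN1A, which encodes p21 and which the study also counts among p53 targets, was nearly level at 258 and 288, a log2 ratio of 0.16. GDF15, SESN2 and TNFRSF10B had log2 ratios of 0.37, 0.27 and −0.36.

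The unfolded protein response has further arms that run through ATF6 and XBP1 and induce chaperones. Of 25 genes of these arms, 10 were at least 1.5-fold higher and 1, DNAJC3, was at least 1.5-fold lower, with a median of 0.47. HERPUD1, a factor of protein degradation at the endoplasmic reticulum, was listed at 45.1 and 112.2. The calcium-binding chaperone CALR stood at 614 and 1406, CRELD2 at 29.1 and 65.0, and HSPA5, the chaperone BiP, at 725 and 1323. The sensors differed among themselves, with log2 ratios of −0.40 for ERN1, which encodes IRE1, 0.01 for ATF6 and 0.53 for its paralog ATF6B, at 54.7 and 79.7. SEL1L, an adaptor of protein degradation, had a log2 ratio of −0.16.

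Other bZIP factors lay on both sides. Of 39 genes counted, CEBPZ among them, 8 were at least 1.5-fold higher and 3 at least 1.5-fold lower, with a median of 0.17. CEBPD, FOSB, at 7.56 and 17.6, and CREB3, at 47.4 and 97.0, had the highest ratios. FOSL1, at 125.5 and 47.3, and NFE2L3, at 64.4 and 32.7, had the lowest, together with CEBPZ, at 107.7 and 63.1, which carries the C/EBP name but is not a bZIP protein. Among C/EBP genes, CEBPG, a frequent partner of ATF4, was nearly level at 121 and 113, and CEBPA was listed at 7.46 and 10.1.

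Close relatives of the 10 genes were not uniformly on the same side as their kin. CHAC2, a relative of CHAC1, was listed at 28.1 and 17.0, a log2 ratio of −0.69, whereas CHAC1 was higher. DDIT4L, a relative of DDIT4, had a log2 ratio of 0.83, and FOS, whose bZIP domain is related to those of ATF3 and JDP2, at 48.0 and 89.9. TRIB1 had a log2 ratio of 0.36, and ATF5, which like ATF4 is controlled by upstream reading frames, one of −0.22. TRIB2 was listed at 0 in both libraries, and NUPR2 had no value.

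DDIT4 was 1 of 4 genes at least 1.5-fold higher among 16 genes that restrain mTORC1, and none of the 16 was at least 1.5-fold lower. The others were DDIT4L, SESN3, at 9.37 and 15.6, and SESN1, at 17.3 and 26.6. Sestrins restrain mTORC1 on the side of amino acid sensing. DEPTOR, at 2.10 and 1.36, DEPDC5, at 12.5 and 11.1, and YWHAZ, at 1144 and 1096, had the lowest ratios of this list, whose median was 0.14. YWHAZ and YWHAE, also listed, are not restrainers of mTORC1 themselves. The counts and the median of this list are thus not of restrainers alone. Some genes stand in more than one list, among them DNAJC3, PPP1R15A, CEBPD, CEBPG, DDIT4 and DDIT4L.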

How the data were processed

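RNA-seq values of 1 control siRNA and 1 MILIP siRNA library were used. Per the labels, the authors' processing notes name TopHat2 2.0.12, HTSeq 0.6.1 and hg38, and the strand setting, annotation and scaling are not given in the sources used here. The values the authors deposited are a signal, read counts scaled per library: 100.0% of values above 0 were whole multiples of 1 step within 0.01 of a read. The 4 deposited columns of the authors' comparison (fold change, p-value, q-value and call) were not used.

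Log2 ratios used a pseudocount of 1 over genes with a mean of at least 1, and 95% limits were Clopper-Pearson for ratios and exact Poisson for values. No test was run, as the design has 1 library per condition. Gene loci, lengths and GC content (99.1% of genes) came from GENCODE release 29 on GRCh38, with 1 principal transcript per gene. The GC trend was removed as the median of 50 bins. Members and lists were chosen with earlier results of these data known. Named genes are the 10 genes, MILIP, the 3 highest and 3 lowest of each list, list genes behind a count of 5 or fewer, the 5 genes nearest to NUPR1 and paralogs. Others named beside them were chosen after their values were seen. Protein sequences were not compared here. Calculations were tested on simulated data with Python 3.11.15, numpy 2.4.6, pandas 2.3.3 and scipy 1.17.1, and figures were drawn with matplotlib 3.10.9.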

Additional observations from a re-analysis of the deposited data

How the results depend on the processing

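No paired analysis was possible because neither condition was sequenced more than once, so leaving out a library was not possible either. A pseudocount of 0.1, no pseudocount, scaling by the median of ratios and removal of the GC trend kept the sign of the log2 ratio of all 10 genes. The ratios moved by more than the counting error with the GC trend removed for TRIB3 (0.99), DDIT4 (0.49), CEBPB (0.33) and ATF4 (0.026), which lie in GC groups 4 and 5. The number of the 10 genes at least 1.5-fold higher was between 5 and 7 under these settings. Over all genes counted in each setting, it was between 1349 and 1799. At 2-fold, 3 genes were higher and 0 were lower, and over all genes 471 were higher and 625 lower. With a mean of at least 5, the median of the amino acid supply list was 0.047 and that of the epithelial markers 0.23, since genes of low value left the lists, and the epithelial markers were at 0.45 with the GC trend removed, for which the cause was not tested. Depth limits CHAC1 most, with 93 reads in the control library.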
